A study of Mus musculus with 7 samples.

Results

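The 9 genes described here are those of insulin-like growth factor 1 (Igf1), the IGF2 receptor (Igf2r) and the IGF binding proteins (Igfbp1 to Igfbp7). They were taken by Ensembl identifier wherever the GENCODE M21 mouse annotation gave one of these symbols, and all 9 were found among the 46603 genes in the count files. RNA sequencing was performed on 7 pieces of tumors grown in nude mice (Balb/c, female, 16 weeks of age) that had been injected with mouse embryonic fibroblasts (MEFs, line CRL-2752) from which nuclear myosin 1 (NM1), an isoform of the Myo1c gene, had been removed by CRISPR/Cas9. The KO group was 3 pieces of tumor from these NM1 KO cells, and the KO + NM1 group was 4 pieces of tumor from the same KO cells after lentiviral transduction with NM1 carrying HA and V5 tags, neomycin selection and testing of single clones. Both groups therefore carry the NM1 deletion in the injected cells, and the comparison is of tumor without NM1 against tumor with NM1 put back. With 1 tumor per condition, an effect of NM1 cannot be told apart from that of mouse, tumor, transduction, selection or clone. The labels describe 1 tumor per condition cut into 4 pieces that were homogenized separately and taken at day 30, so that the p-values below measure the spread between pieces and not between mice. The labels and the study's methods place the injection under the skin of the right flank, and its results name the mammary pads. The study itself gives an earlier day than day 30 for the isolation of the tumors. Only 3 KO pieces are among the samples, although the labels describe 4 per tumor. Wild-type cells were not among the sequenced samples, and the number of passages or clones behind each tumor was not given.

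IGF1 is a secreted growth factor that acts through the IGF1 receptor, a tyrosine kinase that feeds the PI3K and AKT pathway, and most of the circulating hormone comes from the liver under growth hormone, while many mesenchymal tissues make it locally. The IGF binding proteins are secreted carriers that hold IGFs outside the cell, prolong their life and, by releasing or withholding them, raise or lower their access to the receptor. IGFBP7 is a related secreted protein that binds IGFs weakly, and IGF2R is a scavenger that takes up IGF2 and carries mannose 6-phosphate tagged enzymes to lysosomes.

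Gene totals were 24088309 to 28326568 counts per library. Myo1c, the targeted gene, had 312, 289 and 306 CPM (normalised read counts on the CPM scale, with TMM library sizes) in the KO pieces and 438, 408, 406 and 382 CPM in the KO + NM1 pieces. Its log2 fold change was -0.43 (SE 0.13, edgeR quasi-likelihood adjusted p = 0.031). Counts per gene do not separate NM1 from the other Myo1c isoforms, nor injected cells from host cells. Log2 CPM of the KO pieces correlated at 0.966 to 0.977 with each other, whereas KO + NM1 piece 1 correlated at only 0.855 to 0.861 with the other KO + NM1 pieces. Mitochondrially encoded genes took 1.81% to 2.14% of the counts in KO and 5.11% to 18.5% in KO + NM1 pieces.

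Igfbp2 and Igfbp5 lie tail to tail on chromosome 1, with 5457 bp and no annotated gene between them, and Igfbp1 and Igfbp3 lie in the same way on chromosome 11, with 3539 bp between them. The stretches just before the RefSeq transcription starts of these 4 genes (GRCm38.p6) are shown because each pair holds neighbours with unlike levels: Igfbp2 was higher and Igfbp5 lower in KO, and Igfbp1 had no reads where Igfbp3 had 1705 to 7604 counts. Each is at most 250 bases long, without bases that GENCODE places inside the gene, and capitals mark matches on either strand to the TATA box letters TATAAA, the GC box letters GGGCGG, the E-box letters CACGTG or the forkhead-type letters CAAAACA.

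Igfbp2, chr1:72824230-72824479, plus strand: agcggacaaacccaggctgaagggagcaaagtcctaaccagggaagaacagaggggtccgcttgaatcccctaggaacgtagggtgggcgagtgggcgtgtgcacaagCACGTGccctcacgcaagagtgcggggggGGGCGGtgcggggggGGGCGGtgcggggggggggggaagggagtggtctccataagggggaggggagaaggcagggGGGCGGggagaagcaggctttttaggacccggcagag
Igfbp5, chr1:72874885-72875115, minus strand: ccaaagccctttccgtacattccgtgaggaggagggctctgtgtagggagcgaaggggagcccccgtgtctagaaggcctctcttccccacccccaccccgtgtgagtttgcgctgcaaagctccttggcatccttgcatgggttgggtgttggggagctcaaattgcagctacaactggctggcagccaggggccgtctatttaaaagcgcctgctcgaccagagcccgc
Igfbp1, chr11:7197537-7197781, plus strand: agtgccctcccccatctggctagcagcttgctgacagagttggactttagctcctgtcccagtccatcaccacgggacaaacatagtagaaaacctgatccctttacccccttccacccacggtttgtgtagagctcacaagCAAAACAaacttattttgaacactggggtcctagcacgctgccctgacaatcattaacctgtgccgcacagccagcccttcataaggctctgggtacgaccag
Igfbp3, chr11:7213924-7214173, minus strand: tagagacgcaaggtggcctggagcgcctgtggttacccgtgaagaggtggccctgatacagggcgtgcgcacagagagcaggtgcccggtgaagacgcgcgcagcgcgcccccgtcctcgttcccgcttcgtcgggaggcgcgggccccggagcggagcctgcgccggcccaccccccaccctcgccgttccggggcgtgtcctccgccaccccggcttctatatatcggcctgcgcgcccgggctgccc

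The Igfbp2 stretch held 3 GGGCGG matches and 1 CACGTG match, which did not overlap, and the Igfbp1 stretch held 1 CAAAACA match, 108 bases before the start. The Igfbp5 and Igfbp3 stretches held none of the 4 motifs. Of 32817 promoter windows of 250 bases, 32.7% held GGGCGG, 6.02% CACGTG, 5.56% CAAAACA and 12.4% TATAAA, so that these matches are a description of the letters in the window and no statement on a factor.

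Of the 9 genes, 8 passed the filter on low counts. Lower in KO were Igf1, Igfbp4, Igfbp5 and Igfbp7, and higher was Igfbp2, by 4.31-fold to 6.42-fold for the 4 lower genes and 4.84-fold for Igfbp2. That is 1 gene called higher and 4 called lower at an adjusted p under 0.05 and a 2-fold change, where 17.1% of the 16887 genes tested were called higher and 20.3% lower. The members' median log2 fold change was -1.75, against -0.00172 over all genes tested. By the adjusted p alone, 2 were higher and 4 lower, where the background was 25.7% and 24.5%. The groups did not overlap for 6 members, with KO above in 2 and below in 4, where the background was 30.5% and 26.4%. The plot of CPM by tumor piece gives all values.

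**Figure D1:**
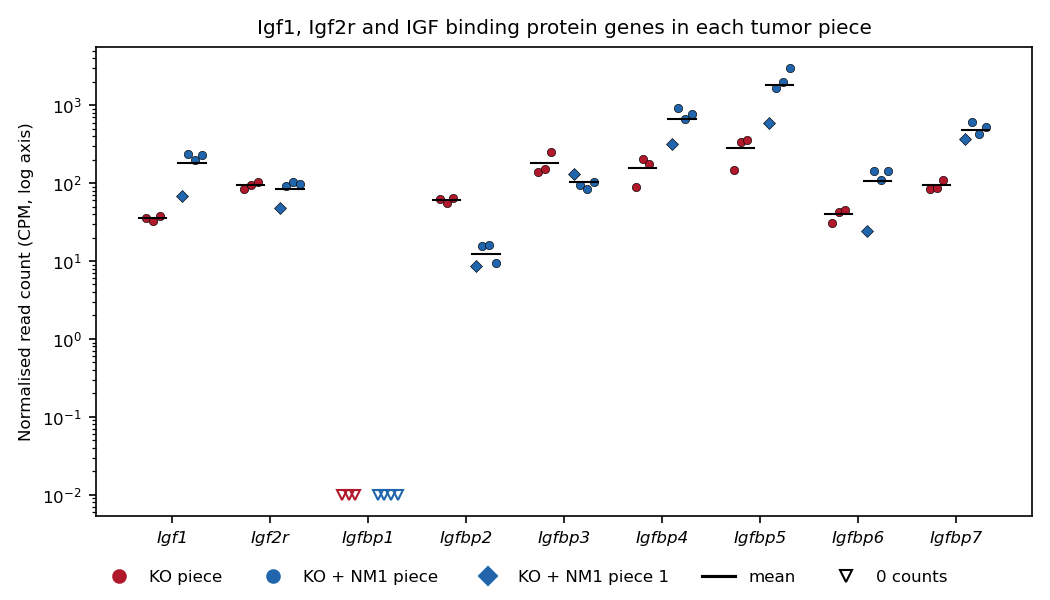
Normalised read count (CPM, log axis) of the 9 genes in each tumor piece, with KO pieces in red, KO + NM1 pieces in blue, KO + NM1 piece 1 as a diamond and a bar at the mean of each group. Open triangles mark 0 counts and are drawn below the measured values. The 4 KO + NM1 pieces lie above the 3 KO pieces for Igf1, Igfbp4, Igfbp5 and Igfbp7 and below them for Igfbp2 and Igfbp3.

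Igf1, the ligand, had 35.4, 32.9 and 38.0 CPM in the KO pieces and 68.8, 235, 199 and 229 CPM in the KO + NM1 pieces. The groups did not overlap, and piece 1 of KO + NM1 stood well below the other 3 but above every KO piece. The means were 35.4 ± 2.58 (SD, n = 3) and 183 ± 77.5 (SD, n = 4) CPM, a log2 fold change of -2.37 (SE 0.39) and an adjusted p of 0.0039 in edgeR. Bulk RNA cannot tell fewer cells that express a gene from less of its RNA per cell, here and for every gene below. Without KO + NM1 piece 1 the log2 fold change of Igf1 was -2.77. The antisense transcript Igf1os overlaps the gene's span but shares no exon base with it, and had 0.0333, 0.0348 and 0.0330 CPM in KO (1 count each) and 0.875, 1.38, 1.09 and 1.11 CPM in KO + NM1.

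Igf2r, the scavenger receptor, had 84.2, 94.5 and 103 CPM in KO and 47.3, 91.7, 103 and 96.1 CPM in KO + NM1. The groups overlapped, and only KO + NM1 piece 1 stood apart, at the low end. The log2 fold change was 0.15 (SE 0.27, 95% interval -0.49 to 0.78, adjusted p = 0.674), and no difference was detected. It was -0.18 without piece 1. Airn, the non-coding RNA that overlaps Igf2r on the other strand, shares no exon base with it and had 2.13, 4.21 and 2.74 CPM in KO against 2.48, 4.15, 5.19 and 5.14 CPM in KO + NM1 (log2 fold change -0.48, adjusted p = 0.323).

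Igfbp1, a binding protein made mainly by the liver, had 0 counts in all 7 libraries, which allows a level of up to 0.0991 to 0.148 CPM (3 counts) per library. It was not tested. Hepatocyte markers are given beside it, and whether they bear on its absence was not tested. Of the 6 listed, 4 were at 0 in every KO piece. The summed level of the list was 0.0330 to 0.100 CPM in KO and 3.79 to 18.3 CPM in KO + NM1. Most of the KO + NM1 sum was Alb, the only marker tested, at 1.75, 12.0, 18.0 and 13.0 CPM. Serpina1c had 1.97 CPM in piece 1, and every other value on the list was at most 0.203 CPM.

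Igfbp2, a binding protein with a high affinity for IGF2, had 61.9, 55.7 and 63.8 CPM in KO and 8.72, 15.8, 16.1 and 9.37 CPM in KO + NM1. The groups did not overlap, and the KO pieces lay close together. The log2 fold change was 2.27 (SE 0.26, adjusted p = 0.000903), a 4.84-fold higher level in KO.

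Igfbp3, the main carrier of IGFs in blood, had 139, 153 and 251 CPM in KO and 130, 96.0, 84.2 and 104 CPM in KO + NM1. The groups did not overlap, but KO piece 1 and KO + NM1 piece 1 were near neighbours, and KO piece 3 was far above the other KO pieces. The log2 fold change was 0.81 (SE 0.25) with an adjusted p of 0.0323, under the 2-fold threshold. Without KO piece 3 it was 0.39 with an adjusted p of 0.2. In limma voom it was 1.06 with an adjusted p of 0.00164.

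Igfbp4, which mostly holds IGFs back from their receptor until it is cleaved, had 89.5, 202 and 176 CPM in KO and 318, 931, 671 and 768 CPM in KO + NM1. No KO piece reached the lowest KO + NM1 piece. The log2 fold change was -2.11 (SE 0.42, adjusted p = 0.00752).

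Igfbp5, a matrix-bound binding protein of connective tissue and muscle, had 148, 342 and 355 CPM in KO and 598, 1663, 1988 and 2975 CPM in KO + NM1. It had the highest CPM of the 9 genes in every KO + NM1 piece and in every KO piece, and a log2 fold change of -2.68 (SE 0.55, adjusted p = 0.0096), the largest in size of the 9. The KO + NM1 pieces themselves spanned a wide range, from piece 1 at the low end to piece 4 at the high end.

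Igfbp6, which prefers IGF2, had 30.8, 43.1 and 45.9 CPM in KO and 24.2, 142, 109 and 144 CPM in KO + NM1. Piece 1 of KO + NM1 was below every KO piece, while the other 3 were above them all. The log2 fold change was -1.40 (SE 0.55) with an adjusted p of 0.0786 in edgeR. It was -1.85 with an adjusted p of 0.000122 without piece 1, so that in edgeR the call turned on that library. The choice of test changed the call as well. With every library kept, DESeq2 gave -1.51 with an adjusted p of 0.0204, and limma voom -1.62 with an adjusted p of 7.45e-05.

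Igfbp7 had 84.3, 86.2 and 110 CPM in KO and 364, 601, 433 and 523 CPM in KO + NM1. The groups lay far apart, and piece 1 was again the lowest of the KO + NM1 pieces. The log2 fold change was -2.36 (SE 0.22, adjusted p = 0.000575). Its exons share 85 bp, or 7.03% of its exon length, with Polr2b on the other strand, whose counts were 915 to 3826 per library. The strand setting of the counting was not given in the sources used here, and the share of reads that either gene could take from the other was not tested.

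KO + NM1 piece 1 was the lowest KO + NM1 piece for every tested member except Igfbp3, for which it was the highest. Without that piece 1 member was called higher and 5 lower, while calls over all genes also rose, from 2882 to 3603 higher and from 3424 to 4172 lower. On log2 CPM a two-sided exact permutation test over all 35 splits gave 0.0286 for Igfbp2 and Igfbp7, the smallest p that 3 against 4 pieces allow. The exact permutation p was 0.0571 for Igf1, Igfbp3, Igfbp4 and Igfbp5 and 0.2 for Igfbp6, and adjusted over the 8 genes the lowest was 0.0761, so no single gene passed that test.

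**Figure D2:**
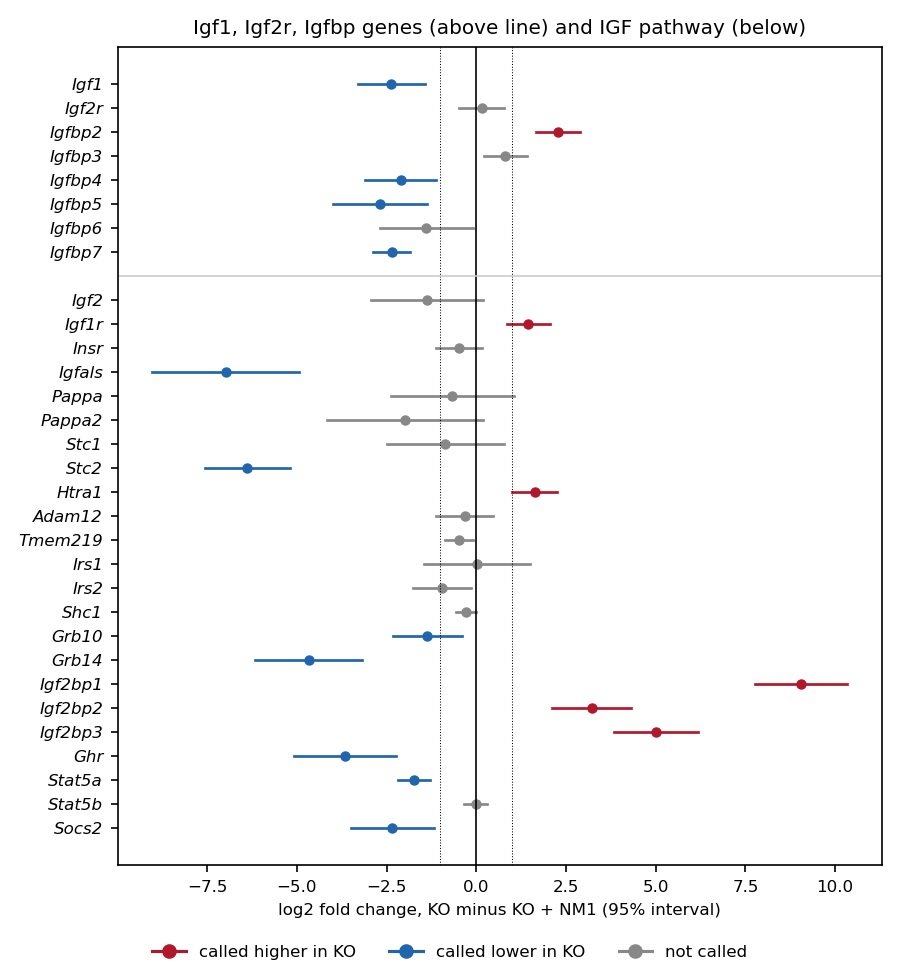
Log2 fold change of KO minus KO + NM1 with its 95% interval, for the tested genes among Igf1, Igf2r and the binding proteins above the line and for 23 other IGF pathway genes below it. Red marks genes called higher in KO, blue genes called lower and grey genes not called, and the dotted lines mark a 2-fold change. Igfbp2 is the only binding protein called higher, at 2.27.

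Levels per transcript length were then compared within each library, in TPM (read counts over transcript length, scaled to a fixed total per library) computed from the union of annotated exons. Summed TPM of the binding proteins was 777 to 1178 in KO and 1687 to 3705 in KO + NM1. TPM carries no TMM scaling, so a comparison between the groups can differ from that in CPM. Igf2r had 31.9 to 37.5 TPM in KO and 15.8 to 30.1 TPM in KO + NM1, without overlap, where its CPM overlapped. Igfbp7 ranked first by TPM in every piece except KO + NM1 piece 4, where Igfbp5 did. With the length of the longest transcript in place of the union of exons, Igfbp3 also ranked above Igfbp7 in KO piece 3, at 274 against 243 TPM. Igf2r and Igf1 were the lowest of the 8 detected genes in KO, at 34.9 ± 2.83 and 12.4 ± 0.791 TPM (SD, n = 3), with ranges that did not meet. From Igfbp7 (268 ± 36.5 TPM) down through Igfbp3, Igfbp5, Igfbp6 and Igfbp4 to Igfbp2 (114 ± 7.69 TPM), each gene's TPM range met that of the next in KO. Within single pieces, by the union of exons, Igfbp7 was still above Igfbp3 in each KO piece, at 246, 248 and 310 against 157, 170 and 273 TPM. The other neighbours in this order changed places between KO pieces. Some genes further apart had ranges that did not meet. The Igfbp7 range, 246 to 310 TPM, lay above those of Igfbp5, Igfbp6, Igfbp4 and Igfbp2. The Igfbp3 range, 157 to 273 TPM, lay above those of Igfbp6 and Igfbp2. In KO + NM1 the lowest 3 were Igf1 (46.2 ± 20.4 TPM), Igf2r (22.8 ± 5.97 TPM) and Igfbp2 (16.7 ± 2.88 TPM, SD, n = 4), and there the ranges of all neighbours in the order overlapped, from Igfbp7 down. Within each KO + NM1 piece, however, Igfbp5 was above Igfbp4 and Igfbp4 above Igfbp6. Igfbp3 was likewise above Igf1, Igf1 above Igf2r and Igf2r above Igfbp2. With the longest transcript, Igfbp2 was above Igf2r in pieces 1, 2 and 3, at 16.4, 24.1 and 19.8 against 13.1, 20.6 and 18.7 TPM.

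The make-up of the binding protein pool differed between the tumors. Igfbp2 was 11.8% ± 2.93 (SD, n = 3) of summed binding protein TPM in KO and 0.727% ± 0.229 (SD, n = 4) in KO + NM1. Igfbp3 was 20.1% ± 3.20 in KO and 3.93% ± 2.51 in KO + NM1. Both shares lay in separate ranges in the 2 tumors, with the highest KO + NM1 share of Igfbp3, 7.70%, in piece 1. Igfbp7 was 27.5% ± 3.75 in KO and 42.4% ± 9.65 in KO + NM1, again without overlap. The Igfbp5 share, 15.9% ± 4.27 against 28.9% ± 9.33, overlapped because piece 1 stood at 18.4%. Igfbp4 was 12.1% ± 3.28 and 15.2% ± 2.28, with overlap. Igfbp6 was 12.6% ± 0.686 and 8.86% ± 3.25, at 11.9% to 13.3% in KO and 4.03% to 11.1% in KO + NM1, without overlap. With the longest transcript the Igfbp6 ranges were 10.6% to 11.9% and 3.83% to 10.7%, and they overlapped. Binding protein TPM per Igf1 TPM was 61.7, 88.0 and 90.2 in KO and 77.8, 48.6, 48.5 and 55.1 in KO + NM1, so this ratio overlapped although each of its parts differed. No test was run on these shares and sums.

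**Figure D3:**
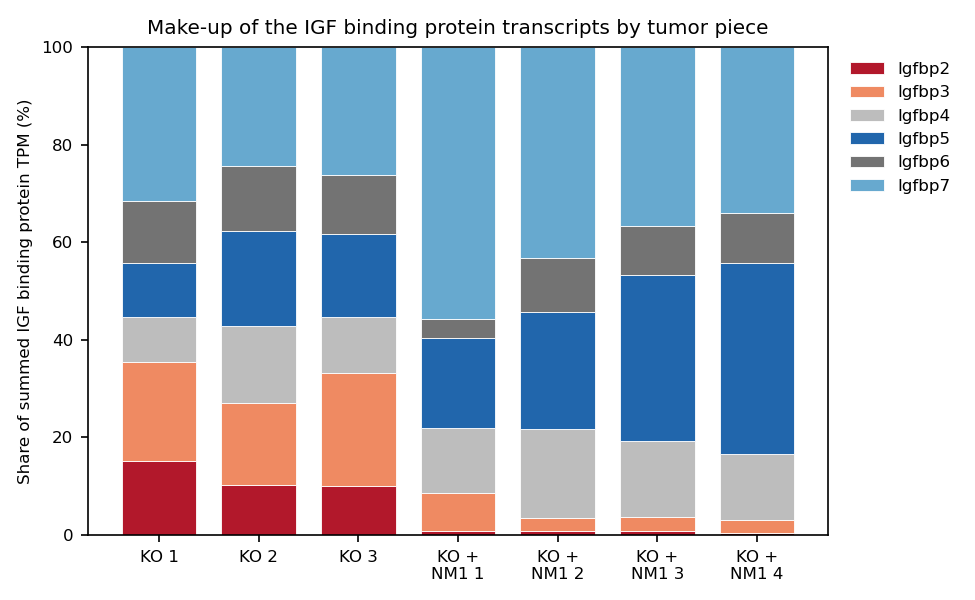
Share of each binding protein in the summed TPM of Igfbp1 to Igfbp7 (%, from 0) in each tumor piece, with Igfbp1 at 0 throughout. Igfbp2 and Igfbp3 together fill a visible part of each KO bar and little of each KO + NM1 bar, where Igfbp5 and Igfbp7 fill most.

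A list of 24 other IGF pathway genes was read from the same fit. Of the 23 that were tested, 5 were called higher and 7 lower in KO, where the background was 17.1% and 20.3%, and their median log2 fold change was -0.67. Igfbpl1 had too few counts to test.

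Among receptors, Igf1r, which carries the IGF1 signal, had 15.7 to 18.3 CPM in KO and 7.37, 4.15, 5.88 and 7.40 CPM in KO + NM1. All KO pieces were higher, with a log2 fold change of 1.45 (SE 0.25, adjusted p = 0.00334), opposite in sign to that of its ligand Igf1. The call held in 17 of 18 alternatives and was lost in edgeR's glmTreat test against a 2-fold change (adjusted p = 0.0691). Insr, the insulin receptor, had 63.4, 53.9 and 56.8 CPM in KO and 45.5, 94.2, 99.2 and 84.7 CPM in KO + NM1 (log2 fold change -0.48, adjusted p = 0.179). The other ligand, Igf2, had 1.93, 13.5 and 8.06 CPM in KO and 7.81, 27.2, 22.2 and 24.1 CPM in KO + NM1, with overlapping groups and a log2 fold change of -1.38 (adjusted p = 0.136). It was called without KO + NM1 piece 1, at -1.77 with an adjusted p of 0.0301. Without KO piece 2 it was -2.14 with an adjusted p of 0.0704, and without KO piece 1 it was -1.03 with an adjusted p of 0.192.

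The acid-labile subunit Igfals, which joins IGF and Igfbp3 or Igfbp5 in a ternary complex, had 1, 8 and 1 counts in the KO pieces and 120, 448, 385 and 441 counts in KO + NM1. Its log2 fold change of -6.98 (SE 0.87, adjusted p = 0.00163) rests on those few KO counts and was -8.73 without KO piece 2. Stc2, a stanniocalcin that inhibits the pappalysin proteases which cleave Igfbp4 and Igfbp5, had 1.67, 3.89 and 3.57 CPM in KO and 90.2, 303, 245 and 379 CPM in KO + NM1. This was a log2 fold change of -6.38 (SE 0.50, adjusted p = 0.000643). The proteases themselves, Pappa and Pappa2, were low and not called. Htra1, a secreted protease that can cleave binding proteins, went the other way, with 768, 639 and 672 CPM in KO and 140, 283, 203 and 269 CPM in KO + NM1 (log2 fold change 1.63, adjusted p = 0.00256).

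The 3 IGF2 mRNA binding proteins, which bind and stabilise target RNAs, were all called higher, where the background was 17.1%. Igf2bp1 and Igf2bp3 are mostly silent in adult tissue, whereas Igf2bp2 is widely expressed there. Igf2bp1 had 88.3, 63.9 and 69.5 CPM in KO against 2, 1, 2 and 8 counts in the KO + NM1 pieces, with a log2 fold change of 9.05 (adjusted p = 0.000225) that rests on those few counts and was 9.94 without KO + NM1 piece 4. Igf2bp2 had 77.6, 62.2 and 62.0 CPM in KO and 2.15, 7.45, 10.4 and 8.88 CPM in KO + NM1, a log2 fold change of 3.22, and Igf2bp3 had a log2 fold change of 5.00.

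In the growth hormone axis, which drives Igf1 transcription in liver, 3 of 4 genes were called lower, where the background was 20.3%. Whether these genes bear on the Igf1 level in the tumors was not tested. The growth hormone receptor Ghr had 42.1, 49.4 and 43.5 CPM in KO and 101, 774, 728 and 676 CPM in KO + NM1 (log2 fold change -3.66, adjusted p = 0.00479). Piece 1 was again far below the other KO + NM1 pieces. Stat5a, a transcription factor of the same axis, had a log2 fold change of -1.73 and the feedback inhibitor Socs2 of -2.34 (adjusted p = 0.00982), whereas Stat5b had -0.02. For Socs2, piece 1 was the highest KO + NM1 piece, at 68.3 CPM against 21.6, 16.8 and 24.9 CPM in pieces 2 to 4. Its log2 fold change was -1.82 without piece 1 and -1.67 in limma voom. Among the adaptors, Grb14 had a log2 fold change of -4.67. Grb10, which restrains IGF and insulin receptor signalling, had -1.36 (adjusted p = 0.0325), a call lost in 6 of 18 alternatives.

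**Figure D4:**
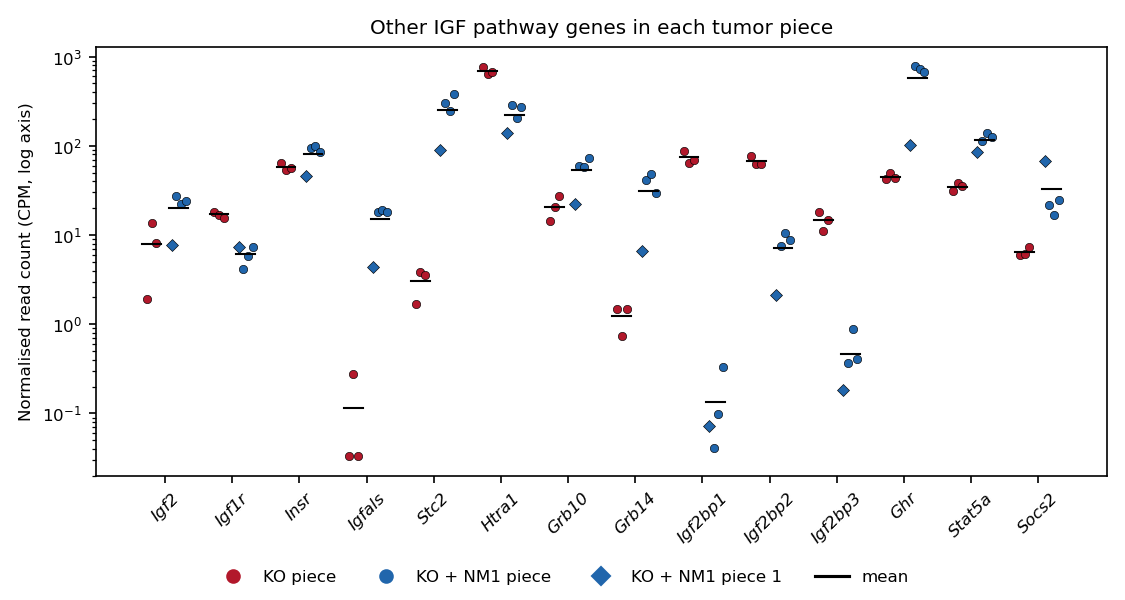
Normalised read count (CPM, log axis) of the called IGF pathway genes plus Igf2 and Insr in each tumor piece, with KO pieces in red, KO + NM1 pieces in blue, KO + NM1 piece 1 as a diamond and a bar at each group's mean. Igf2bp1, Igf2bp2 and Igf2bp3 lie higher in every KO piece, and Igfals, Stc2, Grb14 and Ghr lie lower in every KO piece.

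Genes whose pattern over the 7 libraries was most like that of 3 members were found by the Euclidean distance of centred log2 CPM, among 11893 protein-coding genes with a mean of at least 5 CPM. Nearest to Igf1 were Rflnb, at 0.193, Akap12, at 0.372, and Fbln5, at 0.437. Rflnb had 33.2, 28.4 and 35.5 CPM in KO and 62.7, 196, 191 and 194 CPM in KO + NM1, with the same low piece 1. Nearest to Igfbp2 were Rad51ap1 (0.528), Tbc1d31 (0.530) and Gpc1 (0.558), and nearest to Igfbp5 were Ism1 (0.549), Gna14 (0.656) and Klf9 (0.657). The distances describe these 7 libraries only.

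Marker genes of several cell types moved with the groups, and their part in the results above was not tested. The 10 white adipocyte markers, led by Car3, Fabp4 and Cfd, summed to 348 to 776 CPM in KO and to 7250 CPM in KO + NM1 piece 1 but 41000 to 56600 CPM in the other 3, with piece 1 lowest as for Igf1. All 10 were called lower in KO. For this and the other lists, the background over all genes tested was 17.1% called higher and 20.3% called lower. All 10 skeletal muscle markers were called higher, with sums of 2360, 19300 and 15300 CPM in KO and 7.81 to 25.9 CPM in KO + NM1. KO piece 1 had the lowest KO sum, as it had the lowest KO level of every tested member except Igf1 and Igfbp2. Of the 10 macrophage markers, 8 were called higher, with sums of 2880 to 3270 against 498 to 679 CPM. All 8 endothelial markers (308 to 354 against 1220 to 1700 CPM) and 6 of 8 mural markers (205 to 283 against 898 to 1850 CPM) were called lower. Fibroblast marker sums overlapped, at 7130 to 12900 CPM in KO and 2850 to 13800 CPM in KO + NM1, although 5 of 8 markers were called lower, and piece 1 was the lowest at 2850. Brown adipocyte markers (5 of 6 called lower, 8.80 to 40.0 against 422 to 3710 CPM) and mammary epithelial markers (4 of 6 tested called lower, 2.57 to 55.1 against 223 to 951 CPM) also differed. The 5 keratinocyte markers tested had adjusted p-values of at least 0.102 in edgeR, and the list's sums overlapped, at 7.43 to 1090 and 61.9 to 440 CPM. Wap had 0 counts in every KO piece and 0, 0.0814, 0 and 0.0822 CPM in the KO + NM1 pieces, and was not tested. Fga had 0 counts in every piece.

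**Figure D5:**
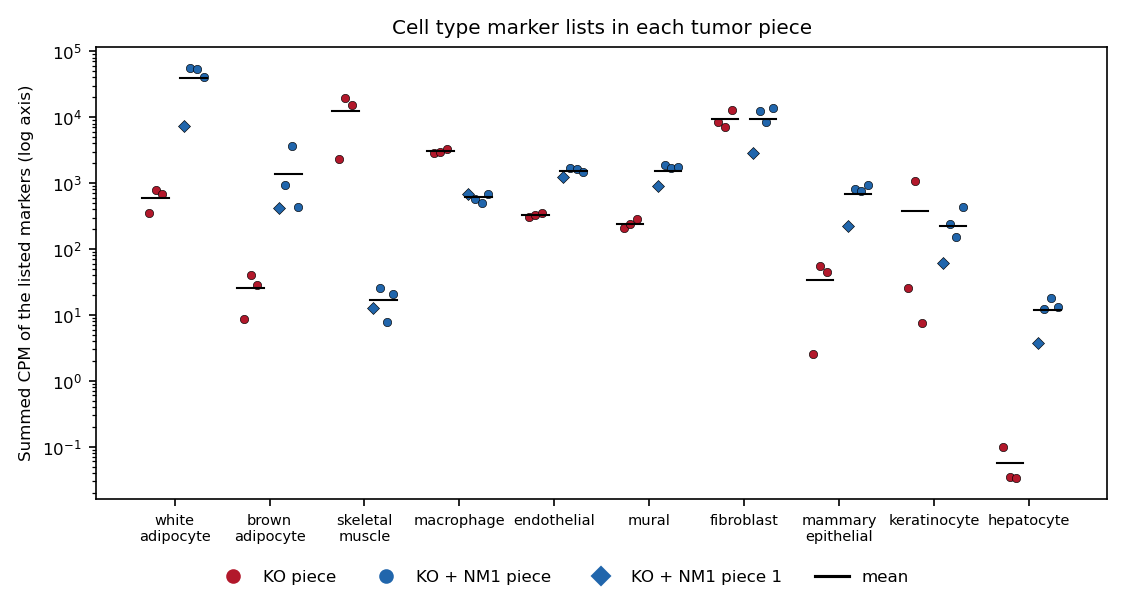
Summed CPM (log axis) of each marker list in each tumor piece, with KO pieces in red, KO + NM1 pieces in blue, KO + NM1 piece 1 as a diamond and a bar at each group's mean. White adipocyte sums are 348 to 776 CPM in KO and 7250 to 56600 CPM in KO + NM1, whereas skeletal muscle sums run the other way.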

How the data were processed

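RNA-seq was measured in 3 KO and 4 KO + NM1 tumor pieces. The authors trimmed reads with Trimmomatic 0.36, aligned them with HISAT2 2.0.4 to GRCm38, handled alignments with SAMtools 0.1.19 and deposited raw counts per Ensembl gene made with HTSeq. The version of HTSeq, its annotation release and its strand option were not given in the sources used here. Of 46603 genes, 46005 matched a GENCODE M21 symbol. From the deposited counts, edgeR 4.0.16 (R 4.3.3) was fitted to 16887 genes kept by filterByExpr (minimum count 10), with TMM and the quasi-likelihood test on all 7 libraries. P-values were adjusted by Benjamini-Hochberg over all genes tested, and calls needed an adjusted p under 0.05 with at least a 2-fold difference either way. Fold changes are KO minus KO + NM1. CPM uses TMM library sizes, and log2 CPM a prior count of 2. TPM used the union of exons. Total counts of 24088309 to 28326568 per library set the precision, and a count of 0 was read as up to 3 counts, which covers counting error only. Library pairs of each tumor differed by more than sampling noise, with a chi-square per degree of freedom of at least 35.2, so no library was counted as a repeat of another. Positions follow GRCm38, and promoter stretches came from RefSeq, which matched all 9 genes.

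The genes and lists were chosen with earlier results of these data known. Named genes were all 9 members, every pathway gene past the threshold with Igf2, Igf1r and Insr, the 3 nearest patterns of Igf1 and of the called member with the largest fold change in each direction, up to 3 markers per list by mean CPM, and genes overlapping a member. Igfbpl1, Stat5b, Pappa, Pappa2, Wap, Fga and H19 fall outside that rule and were chosen after their values were seen. Alternatives were other scalings (DESeq2 1.42.0 size factors, upper quartile, library size alone), mitochondrial genes left out, other filters, DESeq2, limma 3.58.1 voom, glmTreat, the adjusted p alone, a replicate block, and each library left out.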

Additional observations from a re-analysis of the deposited data

Results flagged for a closer look

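In the 4 KO + NM1 pieces, Dixon's ratio (the distance from the most extreme piece to the next, divided by the group's range) was computed for 22 genes, and the extreme piece was piece 1 in every gene that passed Dixon's 95% value. On CPM it passed for 3 genes, Igfals (0.939, lowest), Ghr (0.855, lowest) and Socs2 (0.842, highest), none of them among the 9 described here. The same ratio on log2 CPM, added after the CPM ratios were seen, passed for 6 genes: Igf1 (0.865), Igf2r (0.846), Igfbp6 (0.843), Igf2 (0.836), Igfals (0.967) and Ghr (0.934), with piece 1 lowest in each. Chance flags about 1 in 20 such groups, or 1.1 of 22 on each scale. The 22 genes share the same libraries, so their ratios are not independent.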

How the results depend on the processing

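Igf1, Igfbp2, Igfbp4, Igfbp5 and Igfbp7 kept their direction and their call under all 18 alternatives each. The count of members called higher was 2 with limma voom and 2 with the adjusted p alone, Igfbp3 being the added gene, and the count of pathway genes called higher was 3 when at least 10 counts were asked of every library, because fewer genes were tested. The Igf2r log2 fold change was -0.02 with upper-quartile scaling, -0.04 without KO piece 3 and -0.18 without KO + NM1 piece 1, and ran from -0.18 to 0.24 over the 7 fits that left out 1 library each. The cause was not tested. Igfbp3 kept its sign but passed the adjusted p in 9 of 18 alternatives (log2 fold change 0.39 to 1.06). Leaving out each library gave 1 member called higher and 4 to 5 lower, and 5 pathway genes higher and 6 to 8 lower, where 2174 to 3603 of all genes were called higher and 2811 to 4172 lower. Over all genes, 1707 were called higher and 2074 lower with glmTreat, against 2882 and 3424, and 4345 higher with the adjusted p alone. The median over all genes moved to 0.166 with library size alone, -0.159 with upper-quartile scaling and -0.102 with DESeq2 size factors. With the length of the longest transcript, the Igfbp2 share was 14.8% in KO and 0.986% in KO + NM1 and the Igfbp6 share 11.2% in KO. The piece numbers share no source in the labels, and same-numbered pieces deviated together at r = 0.0802, 0.102 and -0.0165, so they do not pair. With the replicate block, 1 member was called higher and 4 lower, and 5 pathway genes higher and 8 lower, with Igf2 gaining a call (-1.49, adjusted p = 0.0294). Over all genes the block called 2437 higher and 2493 lower. These limits rest on 1 tumor per condition.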

Other observations

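H19, an imprinted non-coding RNA next to Igf2 that normally is expressed from the maternal copy where Igf2 is expressed from the paternal copy, was chosen after its values were seen. It had 73.4, 484 and 317 CPM in the KO pieces and 2.04, 16.4, 9.34 and 12.5 CPM in the KO + NM1 pieces, with every KO piece higher (log2 fold change 4.86, SE 0.78, edgeR adjusted p = 0.00361). Igf2 itself had a log2 fold change of -1.38 (edgeR adjusted p = 0.136). Within each group the piece with the least H19, KO piece 1 and KO + NM1 piece 1, also had the least Igf2. These pieces were low for other genes too. KO piece 1 had the lowest skeletal muscle marker sum in KO, and KO + NM1 piece 1 the lowest white adipocyte sum in KO + NM1. Whether any of these are linked was not tested. The H19 log2 fold change is not compared with the Igf2 value by a test.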
